A study of Mus musculus with 8 samples.

Results

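The Tent5 genes encode a family of non-canonical poly(A) polymerases, and their transcripts were followed in mouse Paneth cells after tumor necrosis factor (TNF), an inflammatory cytokine. The family has 4 members, Tent5a, Tent5b, Tent5c and Tent5d, which were found by matching their symbols to the Ensembl IDs of the count table. They are 4 of the 55414 gene IDs in that table, and 3 of them passed the filter on low counts that left 13368 genes for testing. The family was chosen by the fall of Tent5c in these same libraries, so all Tent5c values for TNF against PBS are a description without a test. Tent5a and Tent5b belong to the family by name and were tested.

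Mice were wild-type (WT, of the C57BL/6J strain per the study's methods) and received an injection of phosphate-buffered saline (PBS) in the control group or TNF in the treated group. After 3 hours the small intestine was taken and Paneth cells, the antimicrobial secretory cells of the crypt base, were purified on a cell sorter. There were 4 PBS and 4 TNF libraries, made with a stranded mRNA kit and labelled as biological replicates. The study describes its sorted samples as coming from individual mice. The age of the mice and the dose of TNF were not found in the labels or methods.

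Poly(A) polymerases of the TENT5 type extend the poly(A) tail of mRNAs in the cytoplasm, which protects the mRNA from decay and favours its translation. Their known substrates are mainly mRNAs that are translated at the endoplasmic reticulum and encode secreted proteins. TENT5C is best known from plasma cells, where it maintains immunoglobulin mRNAs, and as a gene that is often mutated in multiple myeloma. TENT5A is known from bone-forming cells and collagen mRNAs, and TENT5D from the testis.

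The 8 libraries held between 23824717 and 32576077 counts. Values are given as normalized CPM, counts scaled to a common library size after correction by the TMM method. TNF replicate 4 stood apart from the others. Its correction factor was 0.448 against 0.995 to 1.36 in the other 7 libraries, and its score on the second principal component was 63.9 against -29.1 to 4.22. All 9 Paneth cell markers were present in every group mean. Their summed level was 322238 to 475178 normalized CPM in the PBS libraries and 398742 to 467143 in TNF replicates 1 to 3. In TNF replicate 4 the sum was 1255577, a value enlarged by its correction factor of 0.448. In raw counts the 9 markers summed to 11688347 to 14234190 with PBS and 11230002 to 14611493 with TNF. None was called different, where 43.0% of all tested genes were called. Their log2 fold changes ran from 0.01 to 0.82, with a median of 0.63, or -0.03 without TNF replicate 4.

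The 4 genes are similar enough in sequence that a mix-up of reads could be a concern, so the sequences were compared first. The most alike coding stretch of the family is shown to let a reader see how far the members differ. It covers 60 bases, of which 39 are identical in all 4 genes, and capitals mark bases that differ from Tent5c.
Tent5c: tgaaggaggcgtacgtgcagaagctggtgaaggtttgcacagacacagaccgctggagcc
Tent5a: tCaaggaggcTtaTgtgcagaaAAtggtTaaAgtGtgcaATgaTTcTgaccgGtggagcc
Tent5b: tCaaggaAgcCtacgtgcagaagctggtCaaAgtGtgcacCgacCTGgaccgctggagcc
Tent5d: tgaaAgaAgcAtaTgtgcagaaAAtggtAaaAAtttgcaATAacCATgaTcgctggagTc
Within this stretch Tent5b differed from Tent5c at 10 positions, Tent5a at 14 and Tent5d at 17. Over the whole coding sequence the identity between members ran from 54.6% for Tent5b and Tent5d to 69.1% for Tent5a and Tent5c. The longest stretch shared by any pair of the annotated transcripts was 24 bases, and 100% of the 75-base windows of each member were found in that gene alone. Reads of that length can therefore be told apart between the members.

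In the GRCm39 annotation of GENCODE, Tent5c (ENSMUSG00000044468) lies on the minus strand of chromosome 3, from 100358944 to 100396702, and the stretch above at chr3:100380295-100380354 lies within a single coding exon. Its canonical transcript has 2 exons and 5702 bases, of which 1173 are coding and 4206 belong to the 3′ untranslated region (3′ UTR). Tent5a (ENSMUSG00000032265) lies on the minus strand of chromosome 9, from 85202492 to 85209401, with 3 exons and 5648 bases. Tent5b (ENSMUSG00000046694) lies on the plus strand of chromosome 4, from 133207438 to 133215249, with 2 exons and 2292 bases. Tent5d (ENSMUSG00000073007) lies on the plus strand of the X chromosome, from 106836196 to 106931055, with 6 exons and 2995 bases.

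Tent5c was the member that dominated the family at rest. The PBS libraries held 14089, 11919, 10482 and 17416 Tent5c counts, or 378, 443, 413 and 394 normalized CPM. In the TNF libraries 604, 522, 491 and 321 counts remained, or 21.4, 18.1, 17.2 and 27.6 normalized CPM. The groups lay far apart, with all PBS libraries high and all TNF libraries low, and no library fell in between. The mean was 407 ± 28.2 normalized CPM (SD, n = 4) with PBS and 21.1 ± 4.70 (SD, n = 4) with TNF. That is a level 19.4-fold lower with TNF, and a fitted log2 fold change of -4.28 with a standard error (SE) of 0.18. In sorted bulk samples, fewer cells of a type and less RNA per cell cannot be told apart.

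Among all 13368 tested genes, 43.0% were called at an adjusted p under 0.05, with 23.3% higher and 19.6% lower with TNF. Tent5c had the 12th lowest log2 fold change of all tested genes, and the 11 genes below it had PBS means of at most 10.3 normalized CPM. Of the 524 genes with a PBS mean of at least 100 normalized CPM, Tent5c had the lowest value, and the next was Bambi, a transmembrane pseudoreceptor that dampens TGF-β signalling, at -3.71. This order turned without TNF replicate 4, where Tent5c had -4.41 and Bambi -4.48. Bambi had 36.9 normalized CPM in that library and 6.88 to 13.0 in the other TNF libraries. Per kilobase of transcript, Tent5c ranked 292nd in the PBS group, above 97.8% of the tested genes with an annotated transcript length. In the TNF group it ranked 5900th, above 55.7% of them.

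**Figure D1:**
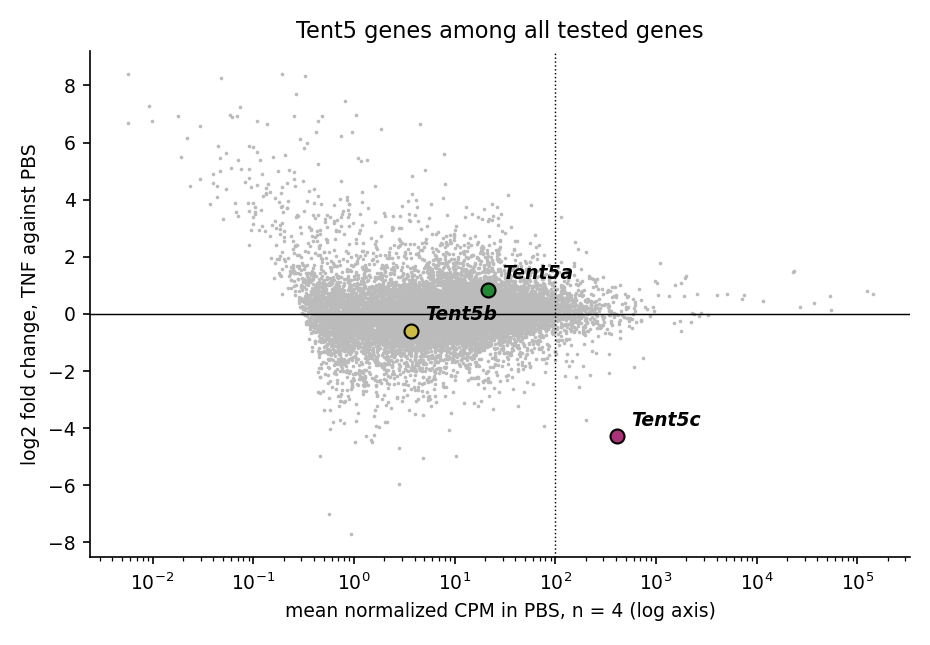
Mean level with PBS (normalized CPM, log axis, n = 4) against the log2 fold change of TNF against PBS for tested genes with a PBS mean above 0, one grey point per gene. The dotted line marks 100 normalized CPM. Tent5c sits at a PBS mean of 407 and a log2 fold change of -4.28, while Tent5a (0.85) and Tent5b (-0.58) lie within the cloud of other genes.

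Tent5a moved in the other direction. Its level was 19.4, 18.4, 20.2 and 27.2 normalized CPM in the PBS libraries and 38.4, 36.0, 47.8 and 31.5 in the TNF libraries. Every TNF library was above every PBS library. The mean was 21.3 ± 4.01 with PBS and 38.4 ± 6.87 with TNF, each with its SD over n = 4 libraries in normalized CPM. Tent5a therefore rose by 0.85 on the log2 scale (SE 0.16), with an adjusted p of 0.00176 in edgeR's quasi-likelihood test. The call rested on the correction of the library sizes. With plain library sizes the log2 fold change was 0.49 (adjusted p = 0.352). In plain CPM the groups overlapped, with 14.1 in TNF replicate 4, 35.8 to 50.7 in the other TNF libraries and 19.3 to 36.9 with PBS. Without TNF replicate 4 the value was 0.95 (adjusted p = 0.000272).

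Tent5b was expressed at a low level and did not pass the test. It had 3.00, 5.17, 3.15 and 3.4 normalized CPM with PBS, from 80 to 150 counts, and 2.38, 3.15, 1.93 and 2.32 with TNF, from 27 to 91 counts. The highest TNF library, replicate 2, reached into the range of the PBS libraries. The means were 3.68 ± 1.01 and 2.45 ± 0.511 normalized CPM (SD, n = 4), with a log2 fold change of -0.58 (SE 0.23) and an adjusted p of 0.066 in edgeR. Without TNF replicate 2 the value was -0.77 and passed the threshold with an adjusted p of 0.0335, and without PBS replicate 2 it was -0.38 with an adjusted p of 0.203. With the replicate number as a block in the edgeR fit, Tent5b also passed, with an adjusted p of 0.0373.

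Tent5d was not detected, with 0 counts in all 8 libraries. A limit of 3 counts corresponds to 0.0679 to 0.258 normalized CPM in these libraries, counting error only. The gene Chmp1b2, which lies within Tent5d on the opposite strand, had 339 to 805 counts in the same libraries. Its log2 fold change was 0.46 (SE 0.12, adjusted p = 0.0111 in edgeR), a call that was lost with plain library sizes (0.04, adjusted p = 0.94) and without TNF replicate 2 (0.37, adjusted p = 0.0546).

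**Figure D2:**
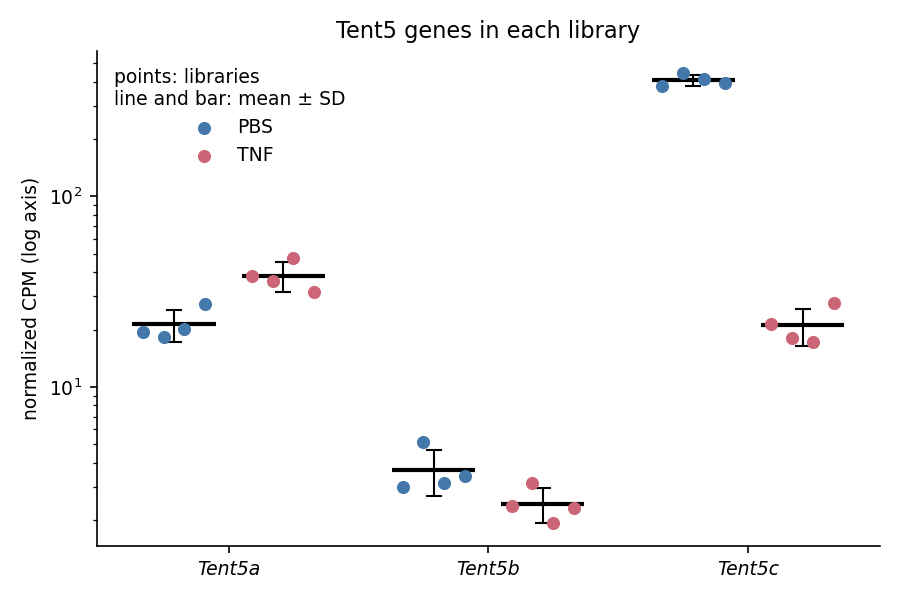
Normalized CPM (log axis) of Tent5a, Tent5b and Tent5c in each of the 4 PBS and 4 TNF libraries, with black lines and bars for the mean and SD. Tent5c sits at 378 to 443 with PBS and at 17.2 to 27.6 with TNF, Tent5a is higher in every TNF library, and the Tent5b groups overlap; Tent5d had no counts and is not drawn.

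The opposite directions of Tent5c and Tent5a changed the make-up of the family. To compare genes, levels were divided by the length of the transcript. With PBS, Tent5c stood at 71.4 ± 4.94 normalized CPM per kb (SD, n = 4), Tent5a at 3.77 ± 0.71 and Tent5b at 1.61. With TNF, Tent5a was the highest member at 6.80 ± 1.22, followed by Tent5c at 3.70 ± 0.824 and Tent5b at 1.07. The ratio of Tent5c to Tent5a per kb was 19.3, 23.9, 20.3 and 14.4 in the PBS libraries and 0.553, 0.498, 0.358 and 0.869 in the TNF libraries. Tent5c was thus above Tent5a in each PBS library and below it in each TNF library, a ratio within each library that does not depend on the library size. Because Tent5c was chosen for its fall, this shift was not tested.

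Of the summed Tent5 level per kb, Tent5c made up 93.0% ± 0.876 (SD, n = 4) with PBS and 32.1% ± 7.61 with TNF. Tent5a made up 4.94% ± 1.04 with PBS and 58.6% ± 8.08 with TNF. The share of Tent5b was 2.08% and 9.31%, although its own level was not higher with TNF. The sum over the family was 76.8 ± 5.11 normalized CPM per kb with PBS and 11.5 ± 0.58 with TNF, so that the gain in Tent5a was small beside the loss in Tent5c. TNF replicate 4 kept the largest share of Tent5c among the TNF libraries, 42.4%, against 24.5% to 32.4% in the other 3.

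**Figure D3:**
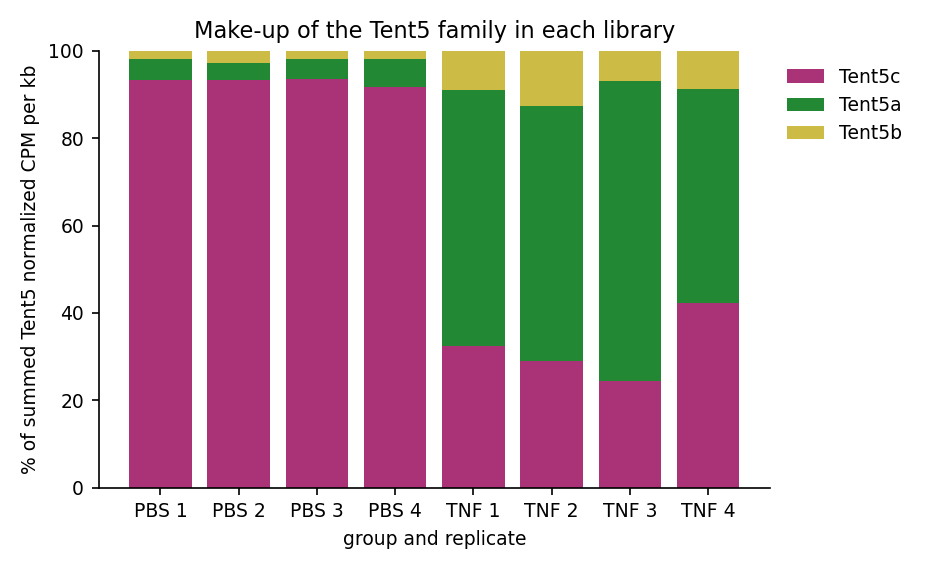
Share of Tent5c, Tent5a and Tent5b in the summed Tent5 level per kb of transcript (percent) in each library. Tent5c takes 91.7% to 93.6% in the PBS libraries and 24.5% to 42.4% in the TNF libraries, where Tent5a takes 48.8% to 68.6%.

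Tent5c is strongly expressed by plasma cells, so the markers of B and plasma cells were counted. Of 13 such genes, 6 had 0 counts in all libraries and 10 had fewer than 20 counts over all 8 libraries together. Among the plasma cell genes, Jchain had 1 count in total, Igha 2 and Igkc 3, and Mzb1 and Tnfrsf17 had 0. The B cell gene Cd79a also had 0, while Tent5c had at least 10482 counts in each PBS library. The summed level of the list was 6.06 to 8.67 normalized CPM with PBS and 2.45 to 5.09 with TNF. Most of it was Pou2af1, a transcriptional coactivator, which fell from 5.79 to 8.53 normalized CPM to 1.46 to 3.58 (log2 fold change -1.52, SE 0.25, adjusted p = 0.00067 in edgeR). Cd79b and Ms4a1 rose from means of 0.05 and 0.114 normalized CPM to 0.599 and 0.909. All 3 tested genes of this list were thus called, 2 higher and 1 lower, against 23.3% higher and 19.6% lower over all tested genes.

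Markers of other cell types moved with treatment as well. For these counts, 23.3% of all tested genes were higher and 19.6% lower. Of 6 stem cell markers 5 fell, among them Lgr5 with a log2 fold change of -1.21 and Axin2 with -1.53, both named after their values were seen. Goblet cell markers were split, with 2 of 7 higher and 2 lower, 1 of 8 enterocyte markers was lower, and 3 of 8 enteroendocrine and tuft cell markers were higher. Without TNF replicate 4, 3 enterocyte markers were lower and 1 was higher. The list for T and myeloid cells summed to 9.76 to 14.1 normalized CPM with PBS and 13.0 to 15.6 in TNF replicates 1 to 3. In TNF replicate 4 it was 68.2, of which Lyz2, also counted among the secreted products below, made up 64.4. In that library Cd68 and Adgre1 had 0 counts, Itgam 3, Csf1r 31 and Ptprc 9 (0 or 1 in the other TNF libraries). The 2 tested genes of this list, Lyz2 and Csf1r, were not called. The list for stroma and endothelium summed to at most 0.554. The part of these cells in the Tent5 values was not tested.

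The nearest tested neighbours of Tent5c are long non-coding RNA genes on the opposite strand. Gm12474 begins 0.022 kb upstream of the Tent5c start and runs away from it. It had 0.805, 0.967, 0.907 and 0.792 normalized CPM with PBS and 0.213, 0.173, 0.421 and 0.344 with TNF. All TNF libraries were below all PBS libraries, a difference of -1.61 on the log2 scale (SE 0.34, adjusted p = 0.00302 in edgeR). On the other side, 12.4 kb past the 3′ end of Tent5c, 4930406D18Rik had 1.64, 2.01, 1.73 and 1.86 normalized CPM with PBS and 0.178, 0.519, 0.351 and 0.43 with TNF. It fell by 2.30 on the log2 scale (SE 0.31, adjusted p = 0.000183), again without overlap of the groups. Both are low, at under 3 normalized CPM. Within 1000 kb of the Tent5c start, 10 other genes were tested, of which 3 were lower, 4 higher and 3 not called, against 19.6% lower and 23.3% higher over all genes. The protein-coding genes nearest on each side were Man1a2, a mannosidase of the secretory pathway, with a log2 fold change of 0.47 (adjusted p = 0.0269), and, at nearly equal distance on the other side, Wdr3 with 0.52 (adjusted p = 0.0034) and Gdap2 with 0.10 (adjusted p = 0.625). These 3 genes, and Trim45 among the 3 lower ones, were named after their values were seen.

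**Figure D4:**
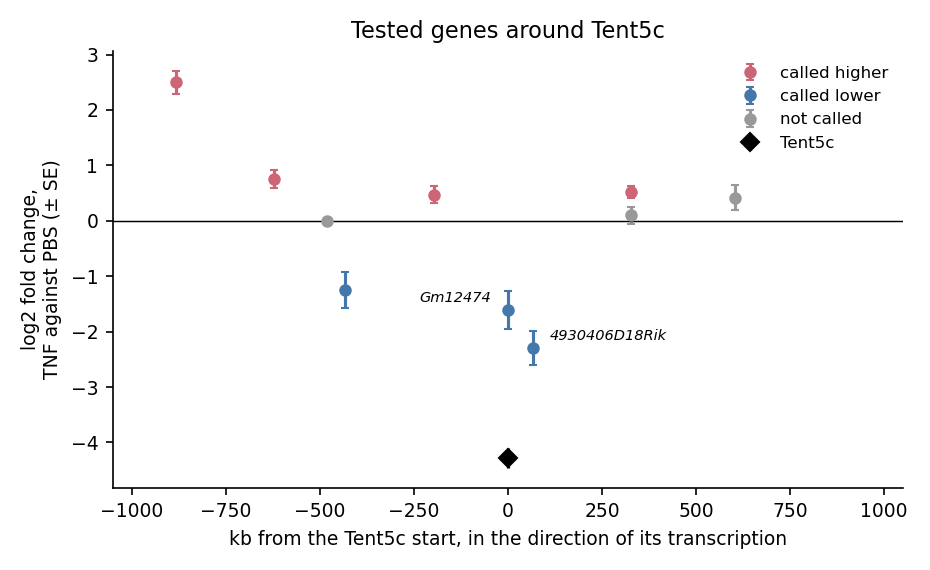
Log2 fold change (± SE) of the 10 tested genes within 1000 kb of the Tent5c start against their distance in kb along its direction of transcription, with Tent5c as a diamond and no SE bar for Ttf2, close to 0. Gm12474 at -1.61 and 4930406D18Rik at -2.30 lie nearest and are lower, while of the genes farther out only Trim45 was called lower.

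The promoter of Tent5c is shown because Gm12474 starts next to it on the opposite strand. The 300 bases run from 250 before to 50 after the RefSeq start (GRCm38.p6, chr3:100489143-100489442, minus strand), with a CCAAT motif in capitals.
Tent5c promoter: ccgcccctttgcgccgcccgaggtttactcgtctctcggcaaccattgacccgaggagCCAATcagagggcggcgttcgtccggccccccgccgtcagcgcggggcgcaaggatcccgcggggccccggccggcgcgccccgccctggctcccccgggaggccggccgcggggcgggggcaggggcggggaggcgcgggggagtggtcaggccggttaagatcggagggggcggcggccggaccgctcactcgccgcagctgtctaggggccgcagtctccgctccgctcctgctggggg
This window had a GC content of 78.0%. Matches were searched on both strands. CCAAT was found in 37.9% of 27025 mouse promoter windows of the same length, TATAAA in 14.2% and the NF-kB consensus in 8.18%. Tent5c held 1 CCAAT and neither of the others, Tent5a held TATAAA with no CCAAT, and Tent5b held 3 CCAAT and 1 match to the NF-kB consensus. These are matches of letters and no evidence of binding.

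The genes next to the other members were looked at in the same way. Next to Tent5a, Bckdhb, a subunit of the branched-chain keto acid dehydrogenase, had a log2 fold change of -0.09 (adjusted p = 0.667), and Ibtk had 0.38 (adjusted p = 0.0386), a call that was lost under 12 of 16 alternative settings. Next to Tent5b, Kdf1 had 0.13 (adjusted p = 0.333). The nearest tested genes to Tent5d that do not overlap it, at 1571 and 657 kb, were Taf9b at -0.37 (adjusted p = 0.174) and Gm379, which rose by 3.26 on the log2 scale (adjusted p = 0.00219) from a mean of 0.638 normalized CPM. Gm379 had 2.28 to 3.88 normalized CPM in TNF replicates 1 to 3 and 16.9 in TNF replicate 4, without which the log2 value was 2.28 (adjusted p = 0.000122).

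The 3′ UTRs of the members differ in AU-rich pentamers. ATTTA is the core of elements that mark short-lived mRNAs. It occurs 9 times in the 3′ UTR of Tent5a, 7 times in Tent5d, 2 times in Tent5c and 0 times in Tent5b. The longer form TATTTAT is found in none of the 4. The sites of Tent5c are printed with the pentamer in capitals, as the member with the largest difference.
Tent5c, 3346 bases after the stop codon, chr3:100376219-100376243 (GRCm39, minus strand): aagtatagttATTTAagcatgaggc
Tent5c, 4189 bases after the stop codon, chr3:100375376-100375400 (GRCm39, minus strand): ataaaggaatATTTAaaagtgtaaa
Among 11586 tested genes with an annotated 3′ UTR, 72.6% held ATTTA, with a median of 2 matches, and 32.3% held TATTTAT. The 1323 genes with a 3′ UTR of 0.8 to 1.25 times the length of that of Tent5c had a median of 7 ATTTA, and 59.3% of them held TATTTAT. Tent5c thus had fewer of these letters than the median for its length.

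The genes with a pattern most like that of Tent5c over the 8 libraries were sought by the Euclidean distance of centred log2 values among 8491 genes with a mean of at least 5 normalized CPM. The nearest was Gvin5, annotated as a pseudogene related to interferon-inducible GTPases, at a distance of 0.933 against a median of 6.27 over all genes. It had a mean of 77.8 ± 3.96 normalized CPM with PBS and 5.24 ± 2.34 with TNF (SD, n = 4). Rasd2, a small GTPase of the Ras family, followed at 1.25, then Bambi at 1.5, Pou2af3 at 1.51 and C2cd4c at 1.60. Pou2af3, a coactivator related to Pou2af1, had 24.2, 26.3, 20.1 and 26.3 normalized CPM with PBS and 2.31, 1.87, 2.49 and 3.09 with TNF. In each of these 5 genes the groups did not overlap, as the choice by likeness to Tent5c would give.

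The other genes that lengthen RNA 3′ ends did not share the course of Tent5c. Of 10 further nucleotidyltransferases, 9 were tested, and 4 rose, none fell and 5 were not called, against 23.3% higher and 19.6% lower over all genes. The median log2 fold change was 0.41, against 0.03 over all genes. Tut7, which adds uridines to RNA ends, rose from 31.2, 23.5, 25 and 46.6 normalized CPM to 72.6, 79.8, 107 and 78.8, by 1.42 on the log2 scale (SE 0.22, adjusted p = 0.000439 in edgeR). Tut1, which acts on U6 RNA, rose by 0.62 (adjusted p = 0.0025), the mitochondrial poly(A) polymerase Mtpap by 0.53 (adjusted p = 0.016) and Tent2 by 0.41 (adjusted p = 0.038). The call of Tent2 was lost under 12 of 16 alternative settings, DESeq2 among them, and that of Mtpap under 4. With plain library sizes none of these 4 passed edgeR's threshold, and 1 gene of the list had an unadjusted p under 0.05. DESeq2 called 3 genes of the list and limma-voom 4. Papola, the main nuclear enzyme, had a log2 fold change of 0.01, Tent4a of 0.11 and Tent4b of -0.19, and none of these passed the test.

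Deadenylases, which shorten the tails that TENT5 enzymes extend, were called about as often as genes in general. Of 15 tested, 3 rose, 3 fell and 9 were not called, against 23.3% higher and 19.6% lower over all genes, and the median log2 fold change was 0.12 against 0.03. Only 1 was called higher with plain library sizes, with no filter beyond 1 count, without TNF replicate 1 and without TNF replicate 2. Noct, known as nocturnin, fell from 18.1, 15.2, 15.5 and 16.6 normalized CPM to 6.07, 6.61, 7.62 and 7.48, which means that it fell by 1.24 on the log2 scale (SE 0.12, adjusted p = 2.26e-05 in edgeR). It is grouped with deadenylases by sequence and is now known to act on NADP(H). Cnot6l, a catalytic subunit of the CCR4-NOT complex, fell by 0.73 (adjusted p = 0.000308) and Parn by 0.54 (adjusted p = 0.00632). The mitochondrial deadenylase Pde12 rose from 11.2, 11.2, 13.2 and 8.17 to 36.3, 43.4, 55.1 and 28.7 normalized CPM, by 1.91 on the log2 scale (SE 0.21, adjusted p = 4.33e-05). Cnot7, another catalytic subunit, had 0.32 (adjusted p = 0.0275), a call that was lost under 9 of 16 settings, with a value of -0.08 under plain library sizes. Cnot6, named as the remaining called gene, had 0.41 (adjusted p = 0.013) and lost its call in the settings with only 1 higher gene. Pan2 had 0.12 and did not pass the test.

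The BTG and TOB proteins bring deadenylases to mRNAs, and 4 of 5 tested genes were called, 2 in each direction, against 43.0% of all tested genes. Btg3 had the largest change, from 5.55, 6.96, 7.65 and 6.16 normalized CPM to 43.4, 54.1, 52.0 and 34.5, a log2 difference of 2.81 (SE 0.17, adjusted p = 7.62e-07 in edgeR). Btg1 rose by 0.96 (adjusted p = 0.000535). Tob1 fell from 36.8, 44.2, 39.6 and 48.1 normalized CPM to 11.1, 9.63, 10.1 and 13.7, by 1.93 on the log2 scale (SE 0.14, adjusted p = 3.1e-06). Tob2, named as the remaining called gene, fell by 0.80 (adjusted p = 0.000718), and Btg2 had -0.29 (adjusted p = 0.198). Without TNF replicate 3, Btg2 had -0.49 and was called (adjusted p = 0.018), so that 2 of the 5 genes were then higher and 3 lower. Under plain library sizes Btg1 had 0.61 and was not called.

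Genes for poly(A)-binding proteins and their partners mostly did not pass the test. Of 10 tested, 1 rose, 2 fell and 7 were not called, against 23.3% higher and 19.6% lower over all genes, with a median log2 fold change of 0.11. Pabpc1, which coats cytoplasmic tails, had 879 ± 22.7 normalized CPM with PBS and 840 ± 120 with TNF (SD, n = 4). The fitted difference on the log2 scale was -0.07 (SE 0.16, adjusted p = 0.765). Paip1, a partner that stimulates translation, fell by 0.55 (adjusted p = 0.00176), and Pabpc1l fell by 1.5 (adjusted p = 0.00139) from a mean of only 1.31 normalized CPM. Pabpc4 had 0.36 (adjusted p = 0.0408), a call that held in few of the alternative settings, and the nuclear Pabpn1 had 0.07. Without TNF replicate 4, 6 genes of this list were called, 4 of them higher.

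Of the known TENT5C partners, the endoplasmic reticulum membrane proteins FNDC3A and FNDC3B recruit the enzyme to that compartment, and the kinase PLK4 binds it. Fndc3b had 92.6, 90.3, 90.2 and 91.8 normalized CPM with PBS and 171, 177, 179 and 145 with TNF. The 4 PBS libraries were close together, and each TNF library was higher. Fndc3b rose by 0.88 on the log2 scale (SE 0.11, adjusted p = 0.00013 in edgeR), a call that was lost with plain library sizes (0.52, adjusted p = 0.257). Fndc3a had 182 ± 8.91 and 187 ± 26 normalized CPM (SD, n = 4), with a log2 fold change of 0.04, and Plk4 had 0.01. Neither passed the test.

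**Figure D5:**
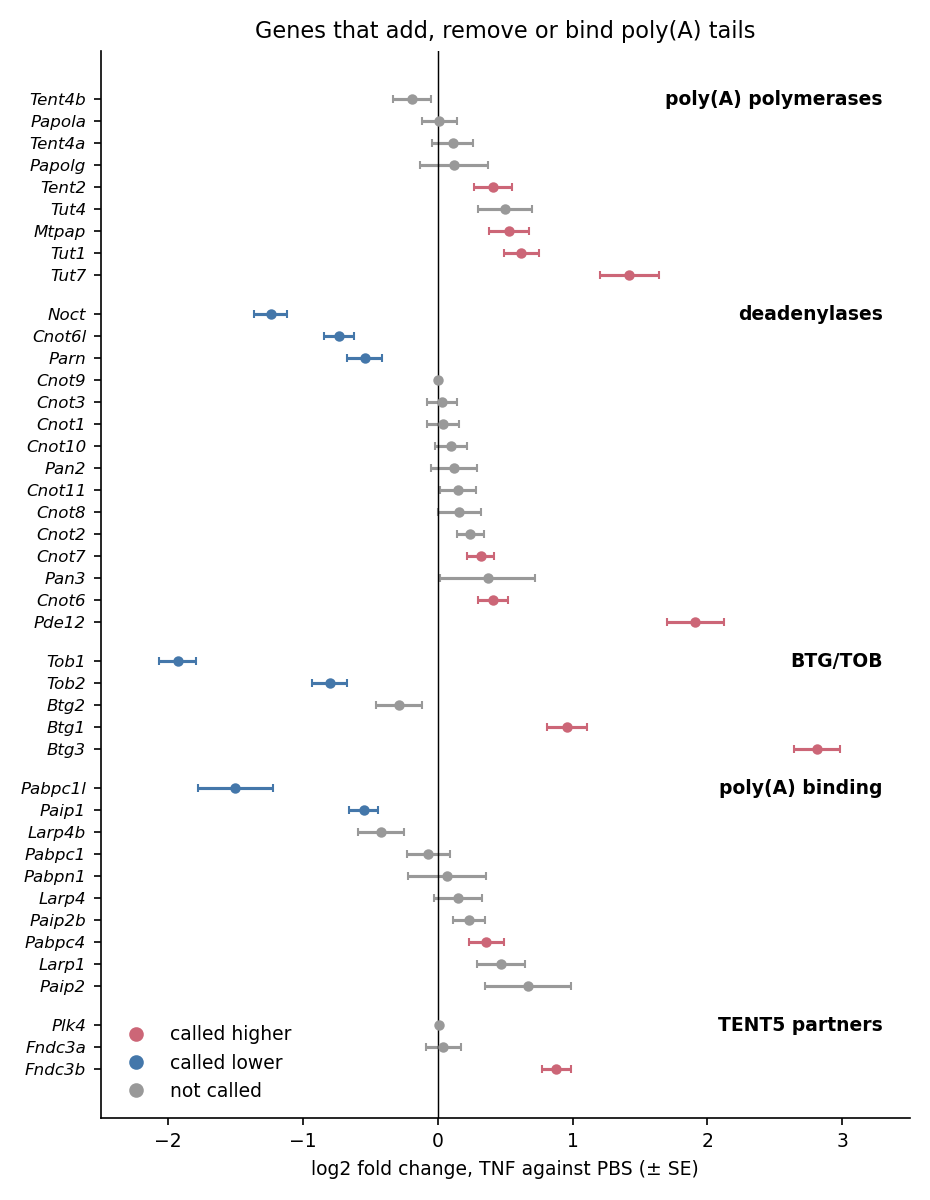
Log2 fold change (± SE) of TNF against PBS for tested genes of 5 lists, with red for genes called higher, blue for called lower and grey for not called; Cnot9 and Plk4, close to 0, have no SE bar. Poly(A) polymerases lie at or above 0 apart from Tent4b at -0.19, whereas deadenylases and the BTG and TOB genes spread to both sides, from Tob1 at -1.93 to Btg3 at 2.81.

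Secreted products of the Paneth cell are the kind of mRNA on which TENT5 enzymes are known to act. The list used here left out the alpha-defensins and held Tff3, also used as a goblet cell marker. Defa24 and Defa30, counted among the Paneth cell markers, had log2 fold changes of 0.82 and 0.63 and were not called. Of the 19 listed genes tested, 4 rose, 1 fell and 14 were not called, against 23.3% higher and 19.6% lower over all genes. The median log2 fold change was 0.53 with all libraries and -0.12 without TNF replicate 4, with the counts of called genes at 4 and 1 in both cases. Lcn2, a siderophore-binding protein, rose from 0.0226 to 0.107 normalized CPM with PBS to 3.35 to 10.7 with TNF, by 6.89 on the log2 scale (SE 0.48, adjusted p = 2.07e-06 in edgeR). The PBS libraries held only 4, 2, 1 and 1 counts of Lcn2, so the size of this change is uncertain. The antibacterial lectin Reg3g rose by 1.80 (adjusted p = 0.000466) and the phospholipase Pla2g2a by 1.01 (adjusted p = 0.000324), which was 0.63 and not called with plain library sizes (adjusted p = 0.149). Reg3b, at 2.29, and Dmbt1, which fell by 1.64, were the remaining called genes. Lyz1, the Paneth cell lysozyme, had 119011 to 166024 normalized CPM with PBS and 139916, 165549, 158019 and 454456 with TNF. Its log2 fold change was 0.70 (SE 0.57, adjusted p = 0.346), and only TNF replicate 4 lay above the PBS range. In raw counts Lyz1 had 5288627 in that library and 4061351 to 5257080 with PBS. Transcript levels alone were measured here, and the tail lengths of these mRNAs were not.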

How the data were processed

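The authors deposited a single table of raw read counts per Ensembl gene ID for 4 PBS and 4 TNF libraries of sorted Paneth cells, without normalization. The submitters' processing notes name FastQC 0.12, STAR 2.7.10a, DESeq2 and the mm39 build. The counting tool, its strand setting and its treatment of reads with several matches are not stated for this series (not given in the sources used), so reads of overlapping antisense genes may be mixed. Of the 55414 IDs, 54749 matched a symbol in GENCODE M39 (GRCm39).

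Counts were tested with edgeR 4.0.16 in R 4.3.3 (filterByExpr, TMM, quasi-likelihood test, TNF against PBS, Benjamini-Hochberg adjustment over all 13368 tested genes, threshold 0.05). Normalized CPM used the TMM-corrected library sizes, with a prior count of 2 for log2 values. The SE is the log2 fold change divided by the root of the F statistic. With a median log2 fold change of -0.38 over all genes under plain library sizes, against 0.03 with TMM, the scaling bears on small changes. DESeq2 1.42.0, limma-voom 3.58.1, other scalings and filters, the replicate number as a block and leaving out each library were alternatives. The fitting code was also run on simulated counts modelled on the PBS libraries, with few changed genes and no outlying library. That run does not show how the test behaves in data like these, and its outcome is not given. No pair of libraries of the same group agreed within sampling noise. The labels call the libraries biological replicates, and the study describes its sorted samples as taken from individual mice.

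The members and lists were chosen with earlier results of these data known. Genes were named if they were members, known partners, preset enzymes of tail metabolism or Lyz1, the 3 called genes of each list with the smallest p, the nearest tested neighbours of a member that do not overlap it, or the 5 genes nearest to Tent5c by Euclidean distance. A result that the rule would name is not reported here. A gene named outside this rule is said to be so or is the rest of a short list. Coding sequences were aligned with MAFFT 7.526, lengths and 3′ UTRs were those of the canonical GENCODE transcript, and promoter sequences were from RefSeq (GRCm38.p6), with the 4 members matched. Protein sequences were not used here.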

Additional observations from a re-analysis of the deposited data

Results flagged for a closer look

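In groups of 4 libraries, a library was marked when its gap to the nearest other was large beside the range of the group, by Dixon's criterion at the 95% level. Of 88 groups of the named genes, 7 were marked, and chance marks about 1 in 20. TNF replicate 4 was the library in 4 of them. It had 148 normalized CPM of Fndc3a (198 to 202 in the other TNF libraries), 62.8 of Ibtk (83.1 to 85.0), 454456 of Lyz1 (139916 to 165549) and 16.9 of Gm379 (2.28 to 3.88). Parn had 15.4 in PBS replicate 2 against 12.7 to 13.0 in the other PBS libraries. Bambi had 154 in PBS replicate 1 against 214 to 225. Paip1 had 18.4 in TNF replicate 3 against 19.8 to 19.9. No Tent5 member was marked in either group.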

How the results depend on the processing

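With plain library sizes, 3182 genes were called in place of 5746, and only 23.8% of them were higher, against 54.3%. Tent5a then had a log2 fold change of 0.49 and lost its call, Tent5c had -4.73, and 0 poly(A) polymerase genes passed edgeR's test in place of 4. Relative to the median of all genes, Tent5a stood at 0.86 there and at 0.82 with TMM. Under the other 15 settings Tent5a remained called. Leaving out 1 library at a time gave 0.73 to 0.96 for Tent5a, -0.77 to -0.38 for Tent5b and -4.41 to -4.19 for Tent5c, with 4757 to 6923 genes called over all. The poly(A) polymerases then had 2 to 5 calls (2 without PBS replicate 1, PBS replicate 3 or TNF replicate 2) and the poly(A) binding genes 2 to 6 (6 without TNF replicate 4, 3 with all libraries). Tent5d had no value under any setting.

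The replicate numbers of the groups were checked for pairing. Deviations of same-numbered libraries correlated at 0.0229, 0.0663, -0.144 and -0.126, and those of PBS replicate 4 and TNF replicate 3 at 0.241. The labels do not state a pairing, and this check on 4 libraries per group cannot tell whether same-numbered mice were handled together. With the number as a replicate block, 5087 genes were called, and Tent5b, at -0.58, passed the threshold with an adjusted p of 0.0373. Its adjusted p ran from 0.0335 to 0.203 over all alternatives. The cause of these shifts was not tested. Tent5b had from 27 to 150 counts per library, and Tent5d had 0.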
